A study of Mus musculus with 2 samples.

Results

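The cells described here are lung cells that carry reads of neutrophil genes but none of the chemokine genes Ccl3 and Ccl4. Members were chosen by their own reads: a cell was a member when at least 3 of the 7 genes Csf3r, Cxcr2, Il1f9, Hcar2, Clec4d, Retnlg and Mmp9 had a read, when neither Ccl3 nor Ccl4 had one, when none of C1qa, C1qb and C1qc had one, and when at most 1 of F13a1, Ms4a4c, Clec4a1 and Clec4a3 had one. The rule found 548 members among 32445 cells kept, 1.69% of them and 245 of them came from lungs of CCR2-/- mice, the others from wild-type (WT) lungs. A further 1051 cells met every other clause but had a read of Ccl3 or Ccl4, so that 34.3% of the 1599 neutrophil-rule cells were members. All mice were C57BL/6, either WT or CCR2-/-, and all received silica, a mineral dust that injures and scars the lung, into the trachea at 400 mg/kg, with lungs taken on days 3, 7 and 21. There was no group without silica, and neither age nor the make of the Ccr2 allele is given in the sources used here. Lung cells from an enzyme digest and a density gradient were stained with hashtag antibodies, pooled and run on a microwell system (BD Rhapsody), as 1 library per genotype with 9 tags in WT and 8 in CCR2-/-. Which tag holds which day or animal is not given in the sources used here, so days were not compared, tags served as the samples, and each p-value below measures the spread between tagged suspensions, which may be technical. Genotype and cartridge cannot be told apart.

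Neutrophils are short-lived granulocytes that leave the bone marrow, enter inflamed tissue along gradients of chemokines and lipid mediators, and there take up particles, release oxidants and granule proteins, and secrete cytokines. Maturing cells lose the transcripts of primary and secondary granule proteins and gain Csf3r, the receptor for granulocyte colony-stimulating factor, Cxcr2, the receptor for neutrophil-attracting chemokines, and S100a8 and S100a9, which encode the abundant cytosolic protein calprotectin. Once in tissue, activated neutrophils can transcribe Ccl3 and Ccl4, whose products attract monocytes, further neutrophils and lymphocytes.

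Ccr2, the gene removed, had 76.0 ± 17.6 CPM (reads scaled to a common total per tag, SD, n = 9 tags, 52.8 to 100.4) in all kept WT cells and 2.69 ± 1.06 (n = 8, 1.40 to 4.36) in CCR2-/-. Among the members, 17 WT cells and 3 CCR2-/- cells had a read of Ccr2. Tags held between 63327246 and 94948946 reads in WT and between 56541715 and 88359317 in CCR2-/-. The reads of members summed to between 680618 and 2241852 per tag in WT and between 611784 and 1847173 in CCR2-/-. The libraries shared 318 cell numbers, and no number was that of a member in both libraries. CPM values are not per length, and no order of levels between genes is drawn from them.

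The label was checked first against genes that the rule did not use, and the members turned out to be mixed. When members were ranked by depth into 5 groups of near equal size, the 3 shallowest groups behaved alike. In them, from 4715 to 15757 reads per cell, between 93.6% and 96.4% of cells had a read of S100a8 or S100a9, and the median of the summed level was 47233 to 52760 CPM. In the next group, up to 50271 reads, the median was 9588 CPM. In the deepest group, from 50443 to 538982 reads, the median was 7.28 CPM, 58.2% of cells had a read, and these 110 cells held 67.8% of all member reads. Markers of other cell types were more frequent in the deeper cells. With up to 8 markers listed for each of 12 other types, 201 members had 4 or more detected markers of at least 1 other type, and 347 did not. These are called overlap cells and low-overlap cells below, a division made after the data were seen. The median overlap cell had 54009 reads over 1888 genes, against 9990 reads over 494 genes in low-overlap cells, and overlap cells held 80.4% of member reads. All 110 cells of the deepest group were overlap cells, against 3.64% of the shallowest.

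Among overlap cells the most frequent foreign markers were those of fibroblasts (111 members with 4 or more), alveolar epithelium (106), dendritic cells (75), endothelium (49), classical monocytes (46) and alveolar macrophages (29). A member could count under several types. Scrublet, which scores a cell by its likeness to simulated doublets, called 28 members, 25 of them overlap cells. Levels summed over cells are therefore described in low-overlap cells, while the genotype test was run over all members and its values in low-overlap cells are set beside it.

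**Figure D1:**
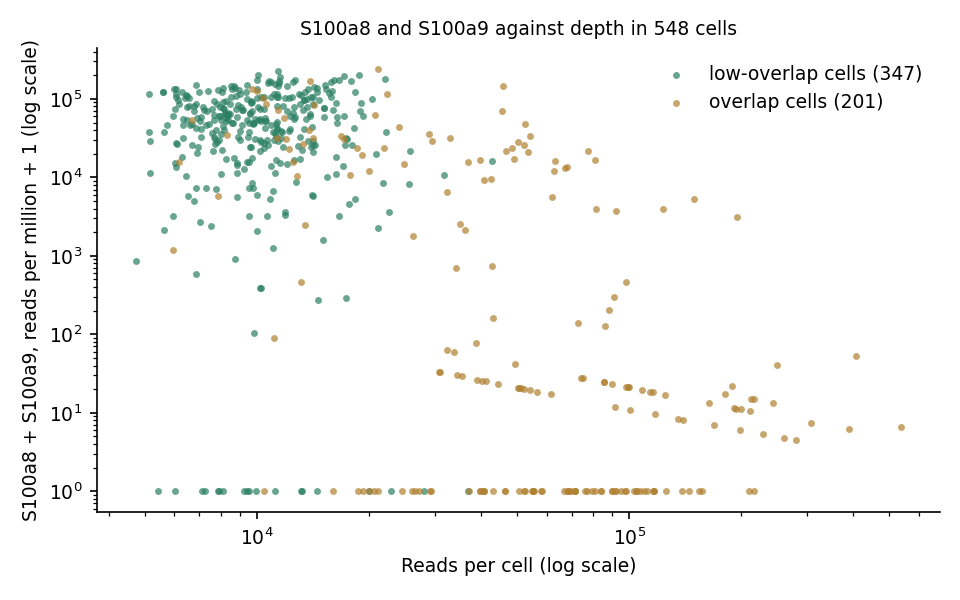
Each point is 1 of the 548 members, placed by its reads (horizontal, log scale) and its summed S100a8 and S100a9 level in CPM plus 1 (vertical, log scale). The 347 low-overlap cells lie mostly to the upper left, and the 201 overlap cells extend to the lower right, with the deepest 110 cells at a median of 7.28 CPM.

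Members near the limits of the rule were more mixed than those well inside it. There were 318 members with exactly 3 of the 7 markers, 138 with 4, 60 with 5, 31 with 6 and 1 with all 7. Of those with exactly 3, 72.0% had a read of S100a8 and 46.9% were overlap cells. The 1077 cells just outside, with exactly 2 markers, had a read of S100a8 in 30.6% and were overlap cells in 76.0%. The C1q clause kept out 109 cells, of which 81.7% were overlap cells, and 22 cells had exactly 2 of the monocyte genes, 1 more than the rule allows. On the side of Ccl3 and Ccl4, 62 of the 1051 excluded cells had a single read over both genes, 85.8% had 10 or more and the median was 74. Likewise, 84 low-overlap members had exactly 3 markers of another type and 44 overlap members exactly 4.

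The 7 rule markers in low-overlap cells, given as a description since they chose the cells, had a read in 77.2% (Clec4d, a C-type lectin receptor), 73.5% (Csf3r), 65.1% (Cxcr2), 45.2% (Hcar2, a receptor for hydroxybutyrate), 44.7% (Retnlg, a resistin-like secreted protein), 37.5% (Mmp9, a gelatinase of tertiary granules) and 37.2% (Il1f9, an interleukin-36 cytokine). Free RNA in the wells was gauged in 1268 cells with 4 or more B cell markers, at a median of 16578 reads per cell. Scrublet calls and cells with neutrophil markers were not taken out of this set, so its shares can also hold doublets. It included 3 members and 4 neutrophil-rule cells with Ccl3 or Ccl4. There the same markers had a read in 5.60% (Clec4d), 16.6% (Csf3r), 15.2% (Cxcr2), 2.60% (Hcar2), 1.03% (Retnlg), 0.237% (Mmp9) and 1.81% (Il1f9) of cells, and 11.7% had a read of Ccl3 or Ccl4. The difference between these shares follows from the rule and is no result. Lung epithelial RNA was read in both, with Sftpc, the surfactant protein C gene, in 62.3% of low-overlap members and 77.3% of B cells.

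Calprotectin genes were the clearest sign of neutrophil identity outside the rule. S100a8 was read in 92.2% of low-overlap members against 10.3% of B cells, and its level over tags was 18504 CPM at the lowest, 30282 at the median and 38434 at the highest in WT. In CCR2-/- these values were 15908, 26113 and 37565 CPM, so the genotypes overlapped nearly whole. S100a9, its partner, was read in 88.2% of cells, with 20053, 29112 and 40410 CPM in WT and 15934, 25018 and 40082 CPM in CCR2-/-. Il1r2, the decoy receptor for interleukin-1, was read in 62.8% against 4.02% of B cells, at 899, 2303 and 5782 CPM in WT and 916, 2436 and 2981 CPM in CCR2-/-. Ly6g, a surface antigen used to stain mouse neutrophils, was read in 1.44% of low-overlap members only, and in no B cell. Other frequent transcripts of mature cells were Slpi, a protease inhibitor (53.6%), Trem1, an activating receptor (57.4%), C5ar1, the complement C5a receptor (36.9%), and G0s2 (40.6%), each under 7% in B cells.

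Some transcripts of precursors were scarce. Mpo, Elane and Fcnb, made in promyelocytes, had no read in any low-overlap member. They were the only genes at 0 among the 17 in the tables from a fixed list of immature and granule genes. In low-overlap members that list summed to 4741.5 ± 1940.6 CPM in WT (SD, n = 9 tags) and 4052.0 ± 680.2 CPM in CCR2-/- (n = 8). Ltf, Camp and Ngp, secondary granule genes of myelocytes, had a read in 1.44%, 0.865% and 2.31% of cells. All 7 eosinophil, basophil and mast cell markers in the tables (Prg2, Ccr3, Mcpt8, Cpa3, Ms4a2, Fcer1a and Gata2) were at 0 in low-overlap members. Lyz2 and Chil3 were read in 53.3% and 31.1% of low-overlap members against 53.5% and 37.0% of B cells. The B cells were deeper (medians of 16578 and 9990 reads), so these shares do not tell expression from background. Cxcr4, the marrow-homing receptor that rises with neutrophil age, was read in 31.7% (B cells 33.4%). B cells express this gene, so no background share is at hand for it. Siglecf, found on a long-lived neutrophil subset in some lung tumours, was read in 2.88% (0.631%).

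Although they had no read of Ccl3 or Ccl4, low-overlap members carried reads of other inflammatory mediators. At a median of 9990 reads per cell, a missing read does not show that a transcript was absent. Cxcl2, a ligand of CXCR2, was read in 92.8% of them against 24.8% of B cells, with 11699 CPM at the lowest, 17345 at the median and 21075 at the highest WT tag and 8542, 15633 and 18639 CPM in CCR2-/-. Il1b, the interleukin-1 beta gene, was read in 77.0% against 10.1%, with 3709, 6303 and 9024 CPM in WT and 3288, 4465 and 7619 CPM in CCR2-/-. In both genes the tags of the genotypes overlapped. Il1rn, the interleukin-1 receptor antagonist, was read in 53.6%, Cxcl3 in 28.2% and Tnf in 5.76%. Among receptors for microbes and particles, Cd14 was read in 82.4% (B cells 13.2%), Clec7a, the beta-glucan receptor dectin-1, in 59.1% (14.4%) and Clec4e, which senses dead cells, in 51.0% (5.91%). Fth1 and Ftl1, the ferritin chains, stood at 34789 ± 8604 and 7942 ± 4087 CPM (SD, n = 17 tags). The most read genes further included Srgn, the granule proteoglycan (15716 ± 2847 CPM), Tmsb4x, Actb and Actg1 of the actin system, B2m, and Tyrobp, the adaptor of activating receptors.

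Over all 548 members the profile was that of a mixture. S100a8 stood at 28237 ± 7039 CPM in low-overlap cells and at 7393 ± 3765 CPM over all members (SD, n = 17 tags), where Sftpc stood at 9435 ± 9354 CPM, Mgp, a matrix Gla protein of stroma, at 6992 ± 6229 CPM, and Scgb1a1, the club cell secretoglobin, at 6200 ± 24629 CPM. The highest tag for Scgb1a1 held 101774 CPM and the lowest 49.1. The genes that varied most between tags were of other lineages: immunoglobulin genes of plasma cells (Igkc, Igha, Jchain), stromal genes (Dcn, Col1a1, Timp1, Serping1), Sftpc, and Retnla and Ccl9 of macrophages, with SDs of log2(CPM + 10) from 2.49 to 3.61. Igha was at 0 in its lowest tag, 4.46 CPM at the median and 27553 at the highest. In low-overlap cells the 10 most variable genes were others, led by the interferon-induced Ifit1 (SD 2.95, 0 to 2303 CPM) and with Rsad2 the third (SD 2.72, 0 to 3818 CPM). Among the others were Tnfrsf12a, Gpnmb, Stfa2l1, Capg, Fcgr4, Plac8 and Isg20.

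Principal components, which order cells along their main axes of difference, showed the same split. Over all members, the first component held 3.23% of the variance of 1000 variable genes and had Sparc, Col3a1, Timp1, Col1a2 and Col1a1 at one end and Il1r2, Slfn4, Slpi, Fgl2 and Il1rn at the other. Its scores followed log10 reads per cell with r = 0.878 over 548 cells, as a description of cells that share libraries and depth. The second component (1.43%) set fibroblast genes such as Mfap4 and Ogn against macrophage genes such as Lgals3, Ccl9, Gpnmb and Ctsd. Within the 347 low-overlap cells, the first component (1.87%) ran from S100a9, Ifitm1, Slpi and Stfa2l1 to ribosomal protein genes with Ctsb and Ctsd, lysosomal proteases. The second (1.13%) ran from Rpl3, Tmsb4x and Rack1 to Ftl1, Il1rn, Cstb, Ctsb and Ccrl2. The third (0.882%) was led by interferon-induced genes: Isg15, Rsad2, Ifit1, Ifit3 and Slfn4.

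Whether loss of CCR2 went with fewer or more of these cells was tested over tags. In WT, members made up 1.03% of kept cells in the lowest tag, 1.51% in the median tag and 3.49% in the highest. In CCR2-/- these values were 1.00%, 1.46% and 2.41%, within the WT range but for its lower edge. Means were 1.78 ± 0.851% (SD, n = 9) and 1.62 ± 0.559% (n = 8), with an exact two-sided permutation p of 0.652, and 0.652 after adjustment over the 2 shares tested. Within neutrophil-rule cells, the share without Ccl3 and Ccl4 was 25.0%, 36.1% and 49.2% in WT and 22.9%, 31.1% and 53.1% in CCR2-/-. Means were 35.6 ± 7.47% and 32.9 ± 10.0%, with an exact two-sided permutation p of 0.534, adjusted 0.652. Neither difference exceeded the spread between tags, and the smallest p that 9 against 8 tags can give is 8.227e-05.

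**Figure D2:**
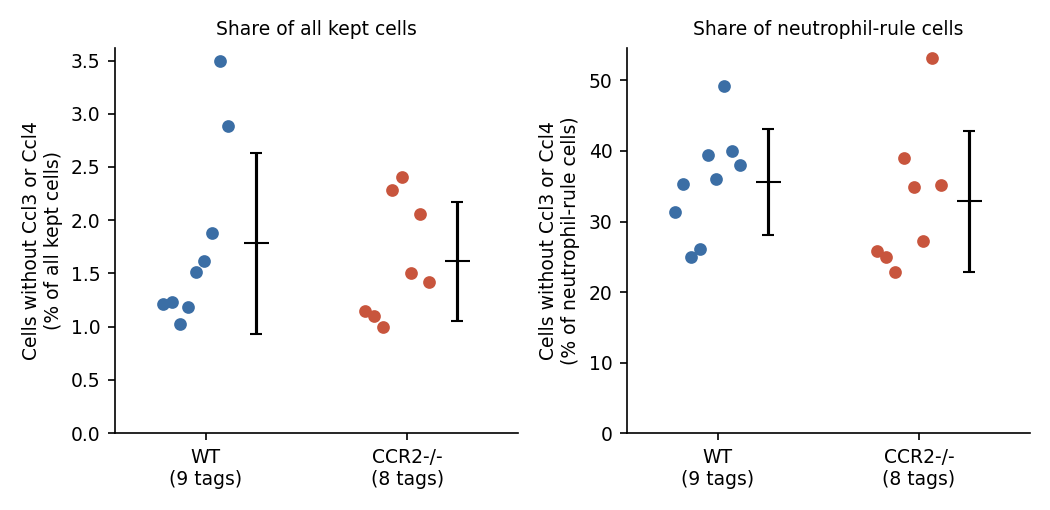
Each point is a tag, with mean and SD beside it in black, for the share of members among all kept cells (left, percent) and among neutrophil-rule cells (right, percent). The 9 WT and 8 CCR2-/- tags overlap in both panels, at means of 1.78% and 1.62% on the left and 35.6% and 32.9% on the right.

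Gene levels were then compared between genotypes on reads summed over members per tag. edgeR's quasi-likelihood test called 0 of 6901 genes higher (0% of those tested) and 0 lower (0%) in CCR2-/- at an adjusted p under 0.05. There were 315 genes with an unadjusted p under 0.05, 119 of them higher (1.72%) and 196 lower (2.84%), and the median log2 change was 0.02. DESeq2 called 5 of the same genes, and limma on log values averaged over cells, which gives each cell equal weight, called 21 of 3095, 19 of them lower. Fasn, the fatty acid synthase, was higher by 3.33 ± 0.698 on the log2 scale (SE, DESeq2 adjusted p = 0.00521), and so were Scd1, a stearoyl desaturase, and Spsb1. Gpihbp1, an endothelial carrier of lipoprotein lipase (-3.30 ± 0.728, DESeq2 adjusted p = 0.0110), and the interferon-induced Oas2 were lower. Fasn and Gpihbp1 had edgeR adjusted p-values of 0.557, and in low-overlap cells neither had enough reads to be tested. Of the markers of other cell types, 8 of 8 fibroblast markers lay above 0 with a median log2 change of 1.04, 7 of 8 alveolar epithelial markers likewise at 0.74, and 8 of 8 endothelial markers lay below 0 at -1.08, against 48.6% of all 6901 genes below 0. Also below 0 were 5 of 6 alveolar macrophage markers (median -1.25), 4 of 5 macrophage markers (-0.25) and 3 of 5 classical monocyte markers (-0.96). So were 4 of 4 dendritic cell markers (-0.45) and 2 of 2 airway epithelial markers (-3.455). None of them was called by edgeR, and their part in the gene differences was not tested. In low-overlap cells alone, edgeR called 0 of 1640 genes, with 38 at an unadjusted p under 0.05. A count of 0 does not show that levels were alike.

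The neutrophil genes named above did not differ beyond the spread between tags in this fit. S100a8 had a log2 change of -0.32 ± 0.32 (SE, edgeR adjusted p = 0.993), S100a9 of -0.35 ± 0.31, Il1r2 of -0.36 ± 0.36, Cxcl2 of -0.54 ± 0.26 and Il1b of -0.52 ± 0.31, all with an edgeR adjusted p of 0.993. In low-overlap cells these changes were -0.20, -0.18, -0.23, -0.23 and -0.35 (edgeR adjusted p = 0.995 for each). Of 21 mature neutrophil genes tested, 0 were called by edgeR, 14 lay below 0 and the median was -0.35, against 0.02 over all genes tested. In low-overlap cells that median was -0.09. Of 19 cytokine and chemokine genes, 14 lay below 0 with a median of -0.54, and in low-overlap cells 5 of 12 did with a median of 0.06. Of 25 pattern recognition and Fc receptor genes, 21 lay below 0 (median -0.60, 7 with an unadjusted p under 0.05, 0 called by edgeR), and in low-overlap cells 9 of 19 did (median 0.18).

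Type I interferon response genes, which infected and bystander cells switch on through the interferon receptor, lay below 0 in 30 of 31 tested (96.8%, against 48.6% of all genes tested), with a median log2 change of -1.19 in CCR2-/-. None was called by edgeR, and 12 had an unadjusted p under 0.05 on the lower side, against 196 of all 6901 genes, and 0 on the higher. Isg15, a ubiquitin-like modifier, had a log2 change of -2.86 ± 0.833 (SE, edgeR adjusted p = 0.848), Ifit3 of -3.25 ± 1.04 (edgeR adjusted p = 0.883), Ifit1, which binds foreign RNA, of -2.31 ± 0.915 and Rsad2, the antiviral viperin, of -1.64 ± 0.908 (both with an edgeR adjusted p of 0.993). Without CCR2-/- tag 3 these changes were larger: -3.88 for Isg15, -4.11 for Ifit3, -3.84 for Ifit1 and -2.81 for Rsad2. Their edgeR adjusted p-values were then 0.258, 0.743, 0.348 and 0.954. In low-overlap cells of all tags the changes were -2.01, -2.15, -1.85 and -1.20 (edgeR adjusted p = 0.995 for each). With limma, where each cell had equal weight, Isg15 had a log2 change of -0.72 (limma adjusted p = 0.00168) and Ifitm3, which blocks virus entry, one of -1.12 (limma adjusted p = 0.00595). That limma fit leaned lower as a whole: 475 of 3095 genes had an unadjusted limma p under 0.05 on the lower side, 37 on the higher. Rn28s1 (limma adjusted p = 0.00168), Ctss and Cdc42 were also among the 19 genes it called lower. With edgeR in low-overlap cells, 14 of 18 interferon genes tested (77.8%) lay below 0, against 49.7% of all 1640 genes there, with a median of -0.49. Isg15 there stood at 293 CPM in the lowest, 662 in the median and 1988 in the highest WT tag, and at 0, 106 and 1213 CPM in CCR2-/-. The CCR2-/- tag at 1213 CPM was tag 3, and the other 7 lay at or below 320 CPM, so that few CCR2-/- tags reached into the WT range.

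By cell, 26.7% of WT low-overlap members and 7.19% of those of CCR2-/- had a read of Isg15. Thinned to 5000 reads per cell, the shares were 23.3% and 7.23%. Without thinning, Il1r2 was read in 73.9% of WT and 50.9% of CCR2-/- low-overlap members, Il1b in 83.9% and 69.5%, and S100a8 in 96.1% and 88.0%. A lower share in CCR2-/- was thus not limited to interferon genes. Sftpc (60.0% and 64.7%) went the other way. Low-overlap cells with 5 or more of the 36 listed interferon genes made up 23.1% in the lowest, 38.5% in the median and 63.6% in the highest WT tag, and 0%, 11.8% and 30.8% in CCR2-/-. At 5000 reads, cells with 3 or more made up 38.5%, 58.8% and 81.8% in WT and 14.3%, 22.9% and 61.5% in CCR2-/-. These shares were formed after the data were seen and carry no test. Low-overlap cells of WT were also deeper, with medians of 10662.5 reads and 556 genes against 9490 and 441. The summed level of the list was 11588 ± 6679 CPM in WT (SD, n = 9) and 8027 ± 8984 CPM in CCR2-/- (n = 8), with medians of 8720 and 4270 CPM. Without CCR2-/- tag 3 the CCR2-/- mean was 4959 ± 2518 CPM (n = 7), so that its size depends on that tag. In low-overlap cells with Ccl3 or Ccl4, WT tags summed to 9897 ± 3025 CPM and CCR2-/- tags to 6471 ± 4786 CPM, and 27.5% and 10.9% of them had a read of Isg15, so the pattern was not limited to cells without Ccl3 and Ccl4. The same direction was present in other cells of the libraries: 5754 ± 916 against 3610 ± 687 CPM in all kept cells, and 3683 ± 556 against 2749 ± 565 CPM in B cells. Isg15 was read in 8.96% of WT and 3.54% of CCR2-/- B cells. The part of a library-wide difference in the members' values was not tested.

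**Figure D3:**
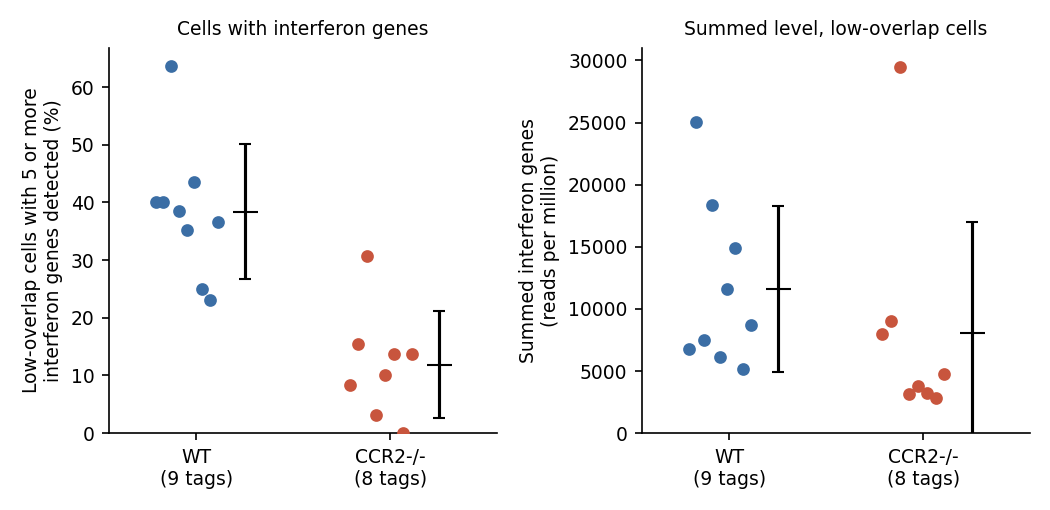
Each point is a tag, with mean and SD beside it in black, for the percent of low-overlap members with 5 or more interferon genes detected (left) and for the summed interferon list in CPM (right). WT tags reach from 23.1% to 63.6% and CCR2-/- tags from 0% to 30.8%, while on the right CCR2-/- tag 3 lies highest of all at 29500 CPM.

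The promoters of Isg15 and Ifit1 are shown because both genes were among the 3 highest loadings of the component led by interferon genes, with Rsad2 the other one. Each line gives the 250 bases before the transcription start (RefSeq, GRCm38.p6; Isg15 at chr4:156200819-156201068, minus strand; Ifit1 at chr19:34640639-34640888, plus strand), with matches to GAAANNGAA, the form of an interferon response element, on either strand in capitals.
Isg15: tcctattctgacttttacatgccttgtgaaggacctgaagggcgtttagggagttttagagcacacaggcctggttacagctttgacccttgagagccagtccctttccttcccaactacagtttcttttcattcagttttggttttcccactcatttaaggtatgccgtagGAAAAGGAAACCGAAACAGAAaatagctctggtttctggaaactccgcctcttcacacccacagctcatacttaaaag
Ifit1: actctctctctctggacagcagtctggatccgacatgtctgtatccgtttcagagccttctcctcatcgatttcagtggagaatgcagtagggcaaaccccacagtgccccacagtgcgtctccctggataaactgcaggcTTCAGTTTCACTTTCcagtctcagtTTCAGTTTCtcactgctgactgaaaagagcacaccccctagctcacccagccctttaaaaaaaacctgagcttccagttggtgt
The Isg15 window holds 3 overlapping matches that begin 78, 72 and 66 bases before the start, and the Ifit1 window holds 3, at 109, 103 and 84. Of the 36 interferon list genes, 28 had a window, and 14 of these (50.0%) held the motif, against 7.13% of 32851 promoter windows. A gene counted when any of its windows held the motif, but the share over all windows counts each window. These units differ, which can raise the shares of genes. The same motif was held by 22.2% of genes lower in all 17 tags in the comparison with Ccl3 or Ccl4 below. It was held by 21.4% of those higher in 15 or more. Both shares are of genes with a window. A match describes letters and not binding.

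Members were finally set beside the neutrophil-rule cells with Ccl3 or Ccl4. The rule used this contrast, so the values are a description without a test. Among low-overlap cells, 347 members were compared with 763 positives within each of the 17 tags, at median depths of 9990 and 10973 reads. Of 3052 genes with at least 50 CPM in either kind, outside the 16 rule genes, 0 were higher (0%) and 11 lower (0.36%) in members in all 17 tags. In 15 or more tags, 19 were higher (0.623%) and 75 lower (2.46%). Members gave fewer cells than positives, so a gene with few reads can be at 0 in them more often. The part of cell number in these counts was not tested. Ratios are on the scale of log2(CPM + 50), which understates the change of low genes, and the median over all genes measured was -0.10.

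The 11 genes lower in members in all 17 tags had varied known roles. Hmox1, the inducible heme oxygenase, stood at 163 ± 233 CPM in members and 608 ± 270 CPM in positives (SD, n = 17 tags), with a log2 ratio of -2.21 ± 1.45. Cxcl2 stood at 8542 CPM in the lowest, 16500 in the median and 21075 in the highest tag of members, and at 18888, 35594 and 46441 CPM in positives, so that the ranges overlapped only between 18888 and 21075 CPM (log2 ratio -1.11 ± 0.50). Ccrl2, an atypical receptor that presents chemerin, stood at 1600 ± 974 against 3794 ± 1623 CPM, and Nfkbia, the NF-kB inhibitor that NF-kB itself induces, at 1642 ± 739 against 3738 ± 1063 CPM. Gadd45b (-1.50 ± 0.95) and Ier3 (-1.33 ± 0.97), stress-induced regulators of survival, Sgpl1, the sphingosine phosphate lyase (-1.50 ± 0.90), and Nlrp3, the inflammasome sensor (-0.92 ± 1.04), were lower in all 17 as well. So were Mfsd11 and Atp6v0c, a subunit of the vacuolar proton pump, together with Atp6v0c-ps2, whose reads cannot be told apart from those of its parent gene. At 5000 reads per cell, Nfkbia was read in 47.4% of members and 71.0% of positives, and Ccrl2 in 33.8% and 59.3%.

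By role, 5 of 17 cytokine and chemokine genes were lower in 15 or more tags and 0 higher, with a median log2 ratio of -1.03. Tnf stood at 122 ± 170 against 688 ± 451 CPM, and Il1rn at 2573 ± 1611 against 6067 ± 1139 CPM. Of 17 iron, metal and oxidative stress genes, 4 were lower and 0 higher (median -0.55), among them Fth1 at 34789 against 46414 CPM and Ftl1 at 7942 against 15018 CPM, each lower in 16 of 17 tags. Of 21 immediate early genes, 4 were lower and 0 higher (median -0.41). Of 17 NF-kB feedback genes, 2 were lower and 1, Tnfaip2, higher (median -0.47). Of 29 interferon response genes, 0 were lower and 0 higher (median -0.15).

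In the other direction, 5 of 23 mature neutrophil genes were higher in members in 15 or more tags and 0 lower, with a median log2 ratio of 0.47. Il1r2 stood at 2620 ± 1100 against 1206 ± 470 CPM, higher in 16 of 17 tags (log2 ratio 1.08 ± 0.83), and was read in 60.1% against 39.3% of cells at 5000 reads. S100a9 stood at 27677 ± 7271 against 18315 ± 7511 CPM and S100a8 at 28237 ± 7039 against 20690 ± 7423 CPM, each higher in 15 of 17 tags. Samhd1, a dNTP hydrolase that restricts viruses (1.19 ± 0.86), and Mcemp1 (1.11 ± 0.93) were higher in 15 tags, and Tmsb4x, Actb, Rac2 and Lcp1 of the actin system in 15 or 16. When all rule cells were compared, the direction of the calprotectin genes turned, to -0.22 for S100a8 and -0.05 for S100a9, and Il1r2 stood at 0.17, while Cxcl2 (-1.68), Ccrl2 (-1.84) and Nlrp3 (-1.19) were lower in all 17 tags there too. In that comparison 0 of 3600 genes were higher (0%) and 15 lower (0.417%) in all 17 tags, and 34 were higher (0.944%) and 122 lower (3.39%) in 15 or more.

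**Figure D4:**
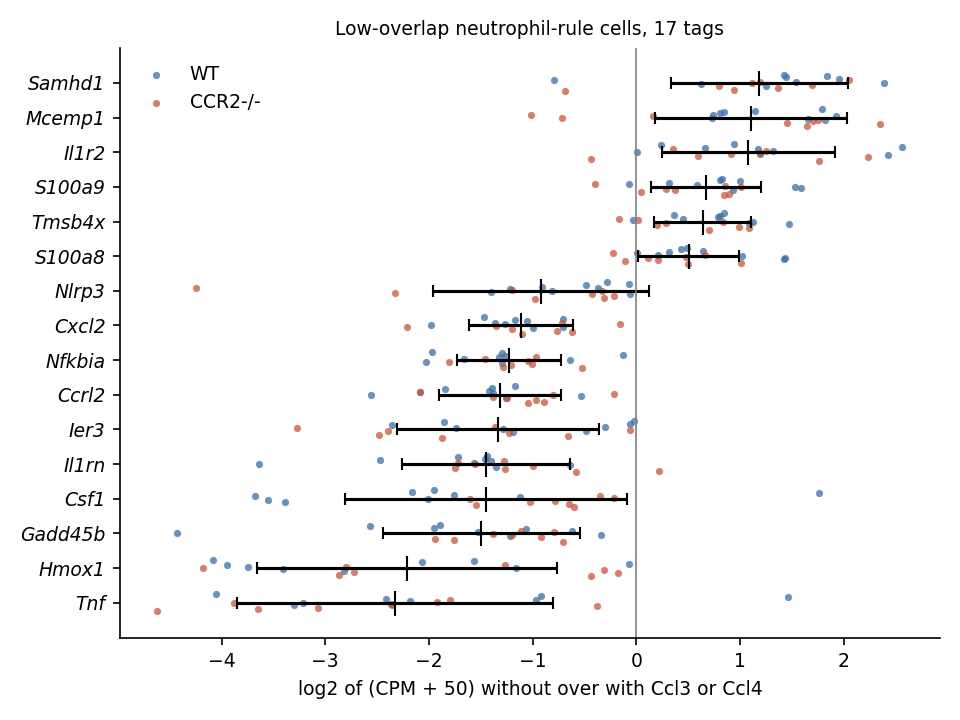
Each coloured point is a tag, placed at the log2 ratio of CPM + 50 in low-overlap members over low-overlap cells with Ccl3 or Ccl4, for 16 genes, with the mean and SD over 17 tags in black. Samhd1, Mcemp1, Il1r2, S100a9, Tmsb4x and S100a8 lie mostly to the right of 0, and Hmox1, Gadd45b, Ier3, Ccrl2, Nfkbia, Nlrp3 and Cxcl2 lie to the left in all 17 tags.

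The promoters of Cxcl2 and Nfkbia are shown since both genes were lower in members in all 17 tags and hold the same motif. Each line gives 250 bases before the start (RefSeq, GRCm38.p6; Cxcl2 at chr5:90903649-90903898, plus strand; Nfkbia at chr12:55492648-55492897, minus strand), with matches to GGGNNTTTC, a form of the NF-kB site, on either strand in capitals.
Cxcl2: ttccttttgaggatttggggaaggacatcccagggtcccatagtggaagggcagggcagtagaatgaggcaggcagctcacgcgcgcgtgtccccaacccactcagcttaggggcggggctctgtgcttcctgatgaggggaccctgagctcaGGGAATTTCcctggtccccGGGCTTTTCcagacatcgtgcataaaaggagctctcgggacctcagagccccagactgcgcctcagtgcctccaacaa
Nfkbia: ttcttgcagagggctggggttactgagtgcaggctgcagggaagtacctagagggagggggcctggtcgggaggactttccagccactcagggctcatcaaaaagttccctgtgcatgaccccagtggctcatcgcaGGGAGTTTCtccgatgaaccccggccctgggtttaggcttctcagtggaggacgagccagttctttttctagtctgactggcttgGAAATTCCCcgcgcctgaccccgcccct
The Cxcl2 window holds 2 matches, beginning 97 and 78 bases before the start, and the Nfkbia window holds 2, at 113 and 28. Of the 11 genes lower in all tags, 9 had a window and 3 of these (33.3%) held the motif, the other one being Ccrl2, against 3.72% of all windows. Of the 19 genes higher in 15 or more tags, 14 had a window and 1, S100a9, held it. In all, 7 motif forms were searched on both strands: these 2, and GGGNNTTCC, TTGCNNAA, TTNCNNAA, TGANTCA and GGAAGT, which 4.98%, 9.56%, 36.9%, 6.75% and 19.7% of windows hold. In that order, they were held by 14.3%, 3.57%, 64.3%, 32.1% and 21.4% of the 28 interferon genes with a window. For the 9 genes lower in all tags that had a window, the shares were 22.2%, 0%, 22.2%, 11.1% and 33.3%. For the 14 genes higher in 15 or more tags that had one, the shares were 0%, 14.3%, 28.6%, 14.3% and 42.9%. GGGNNTTTC was in 7.14% of the interferon genes with a window. TTGCNNAA is contained in TTNCNNAA.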

How the data were processed

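Lung cells of silica-treated WT and CCR2-/- mice were profiled in 1 library per genotype. The deposited tables hold whole-number counts per gene and cell, and column totals differ, so they were taken as not normalized. Their size (median nonzero entry 9 in WT and 11 in CCR2-/-) is that of reads rather than molecules, and how reads were counted is not given in the sources used here. The submitters' processing notes name cutadapt 2.10, Bowtie2 2.4.2, R 3.6.3 and GRCm38, without order or role. Columns of no tag (1213, of which 1211 are named as doublets by the authors) were not used. A cell was kept if 200 or more genes had a read and mitochondrial genes held no more than 25% of its reads. The authors' doublet columns were left out, and further doublets called by Scrublet (Scanpy 1.11.5, expected rate 0.06) were kept and left out only as an alternative.

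Levels are CPM of reads summed over cells per tag. Genotypes were compared with edgeR 4.0.16 (quasi-likelihood test on summed counts after its filter on low counts, Benjamini-Hochberg adjustment over all genes tested), with DESeq2 1.42.0 and limma 3.58.1 in R 4.3.3 as alternatives, and shares with exact permutation tests over tags (SciPy 1.17.1). On simulated data the genotype test missed most of the smaller changes and many of the larger ones. Each tag holds 19 to 64 member cells, 10 to 41 of them low-overlap cells. Genes named are those past the threshold, the 20 with the highest CPM, the 10 most variable over tags, those changed the same way in all 17 tags, the leading genes of the first components, and examples of fixed lists. The third component, the low-overlap division, the counts in 15 or more tags, the interferon shares per cell and the motif forms were chosen after seeing the data. A few genes that meet these rules are not reported here. The members and lists were chosen with earlier results of these data known.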

Additional observations from a re-analysis of the deposited data

Results flagged for a closer look

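Of 28 groups of tags checked, 8 held a tag far from the others of its genotype, and chance alone gives about 1 such tag in 20 groups. All values are for low-overlap members, of which WT tag 3 held 11 and CCR2-/- tag 3 held 13, so that single cells can weigh heavily. WT tag 3 had 63.6% of cells with 5 or more interferon genes, against 23.1% to 43.5% in the other WT tags, and a summed cytokine and chemokine level of 19542 CPM, against 27308 to 34390 CPM. CCR2-/- tag 3 had a summed interferon level of 29500 CPM, against 2833 to 9035 CPM in the other CCR2-/- tags, and an Isg15 level of 1213 CPM, against 0 to 320 CPM. Il1r2 stood at 916 CPM in CCR2-/- tag 2, against 2089 to 2981 CPM in the others. Tnf stood at 622 CPM in WT tag 7, against 0 to 201 CPM, and at 418 CPM in CCR2-/- tag 4, against 0 to 194 CPM. Hmox1 stood at 562 CPM in WT tag 6, against 0 to 193 CPM.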

How the results depend on the processing

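The difference in the share of kept cells (CCR2-/- minus WT, -0.168 percentage points) turned to 0.0424 in low-overlap cells, and lay between -0.281 and 0.0459 when each tag was left out, above 0 without WT tag 8. The share without Ccl3 and Ccl4 stayed below WT in each alternative run, with differences of -5.60 to -1.01 points when each tag was left out. Both differences were largest with a stricter cell filter, of 500 or more genes and at most 10% mitochondrial reads. They were then -0.688 points for the share of kept cells and -7.105 points for the share without Ccl3 and Ccl4. Each had an adjusted p of 0.141 in the exact permutation test. With cells thinned to 5000 reads they were -0.000144 and -0.898 points. Neither share passed the threshold in any alternative run. Genes higher in CCR2-/- numbered 1 with no filter on low counts, 3 with DESeq2 and 2 with cells weighed equally in limma. Genes lower numbered 2 with DESeq2 and 19 with limma, and leaving out each tag gave 0 in either direction by edgeR. With limma the log2 change turned to 0.36 for S100a8, 0.42 for S100a9 and 0.090 for Cxcl2. That of Il1r2 turned to 0.067 with 2 or more reads as detection and to 0.047 without Scrublet calls. Leaving out CCR2-/- tag 3 moved Ifit1 from -2.31 to -3.84 and Rsad2 from -1.64 to -2.81. The stricter cell filter moved Isg15 from -2.86 to -4.15 (edgeR adjusted p = 0.0935) and Irf7 from -2.33 to -5.02 (edgeR adjusted p = 0.0894). It moved Ifitm3 the other way, from -0.74 to -0.50. With 2 or more reads as detection, Isg15 stood at -1.90 and Irf7 at -0.79. The cause was not tested. Of 424 single-gene alternatives, 412 kept direction and side, 5 reversed and 7 passed the threshold.

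Tags with the same number were not treated as paired in the main tests. The correlations of their deviations lay between -0.172 and 0.066, and 1 of 8 numbers matched best with itself. The share without Ccl3 and Ccl4 was lowest in tag 3 (25.0% in WT, 22.9% in CCR2-/-) and highest in tag 7 (49.2% and 53.1%) in both genotypes. Whether tags of the same number share a day or another trait was not tested. With the replicate number as a block, the differences were -0.0300 points (exact permutation p = 0.859) and -2.41 points (exact permutation p = 0.383, adjusted 0.766), and edgeR called 0 genes. Tags hold few of these cells and genes with few reads were not detectable at this depth.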
